A study of Mus musculus with 21 samples.

Results

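A set of 10 transcripts that mark the resident macrophages of the liver and leukocytes in general were followed across a mouse liver RNA-seq series with 6 genotype-by-diet groups. The markers are Clec4f, Adgre1, Vsig4, Cd5l, Marco, Csf1r, Cd68, Ptprc, Laptm5 and Coro1a. They were chosen by gene symbol, as the rows of the count table whose Ensembl identifier carries one of these symbols in GENCODE M21 (GRCm38). All 10 were found among the 46078 genes of the table, and all 10 were among the 14370 genes that passed the filter on low counts.

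Kupffer cells are the macrophages that sit inside the liver sinusoids, where they clear particles, complement-tagged microbes, old red cells and lipoproteins from portal blood. They depend on signalling through the CSF1 receptor, and in mice they carry a set of lectins, scavenger receptors and complement receptors that other liver cells largely lack. Hepatocytes supply most liver RNA, so in whole liver the transcripts of Kupffer cells and other leukocytes are a small fraction of the reads. In such bulk RNA, fewer cells of a type and less RNA per cell cannot be told apart.

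The study asked how the removal of 1 amino acid from the diet acts on mice that cannot make cysteine. The mice were WT or lacked cystathionine gamma-lyase, the enzyme that releases cysteine from cystathionine and is encoded by Cth. The mutant is given as genotype cse in the labels and called KO here. The knockout was constitutive and on a mixed 129 and C57BL/6 background, and the study's text describes the comparison animals as heterozygous although the labels give WT. All mice were male and at least 9 weeks old, and were kept under calorie restriction, on control diet for 3 days and then on the test diet, a defined amino acid diet, for 2 days. The diet was complete (CTR), lacked cysteine (noCys) or lacked tryptophan (noTrp), and in the last 2 the remaining amino acids were raised in proportion. There were 3 WT CTR, 4 KO CTR, 4 WT noCys, 3 KO noCys, 2 WT noTrp and 5 KO noTrp libraries, labelled as biological replicates. The KO noCys libraries carry the replicate numbers 1, 3 and 4.

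The 21 libraries held 8889951 to 27230852 counts assigned to genes, and the deepest was KO CTR replicate 2. Cth itself was lower in each KO library (6.34 to 14.99 CPM, the count scaled to the size of the library) than in any WT library (108 to 452 CPM). The labelled tissue was checked against 12 hepatocyte genes, which together took 48040 to 115300 CPM. The 10 markers together took 99.7 to 256 CPM. No marker was at 0 in any library, and the lowest count was 11, for Marco. The values below are CPM scaled by the TMM factors of edgeR, and means carry the SD between libraries. Differences are log2 fold changes with their SE from 1 edgeR quasi-likelihood fit over the 6 groups, 2-sided, with Benjamini-Hochberg adjustment over all 14370 genes tested. A gene was called at an adjusted p under 0.05.

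Per kilobase of annotated exon, the most abundant marker was Clec4f, a C-type lectin that in the mouse liver is found on Kupffer cells, with a mean level of 23.5 CPM per kb over the 21 libraries. Cd5l, a secreted protein of tissue macrophages that binds lipids and pathogens, followed at 19.2 CPM per kb, and Vsig4, a complement receptor of the immunoglobulin family, at 8.54 CPM per kb. The lysosomal glycoprotein Cd68 stood at 4.03, the CSF1 receptor Csf1r at 3.92 and the haematopoietic lysosomal protein Laptm5 at 3.33 CPM per kb. Lower levels were found for Coro1a, an actin-binding protein of leukocytes (1.84 CPM per kb), Marco, a scavenger receptor (1.65 CPM per kb), and Adgre1, which encodes the F4/80 antigen (1.36 CPM per kb). Ptprc, the CD45 phosphatase present on nucleated blood cells, had the lowest level at 0.220 CPM per kb, but its annotated exons sum to 18.3 kb, which lowers this value. The ratio of the highest to the lowest library ranged from 2.49 for Ptprc to 7.86 for Marco.

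The group means were compared for each marker. WT noTrp had one of the 2 highest group means for all 10 markers and KO noTrp for 6, while the highest mean of Adgre1 was that of WT noCys. KO noCys had the lowest mean for 7 markers, WT CTR for Csf1r and Cd68, and KO CTR for Clec4f. Groups next to each other in this order overlapped in their library values, except that Cd68 in WT noTrp lay above KO noTrp and Laptm5 in KO CTR lay above KO noCys. A test for any difference among the 6 groups called 5 of the 10 markers, where 28.7% of all tested genes were called. These were Laptm5 (adjusted p = 0.00776, edgeR), Clec4f (adjusted p = 0.0121), Coro1a (adjusted p = 0.013), Cd5l (adjusted p = 0.0189) and Cd68 (adjusted p = 0.044). The count was 3 without KO noCys replicate 4, and between 4 and 7 without any other single library.

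**Figure D1:**
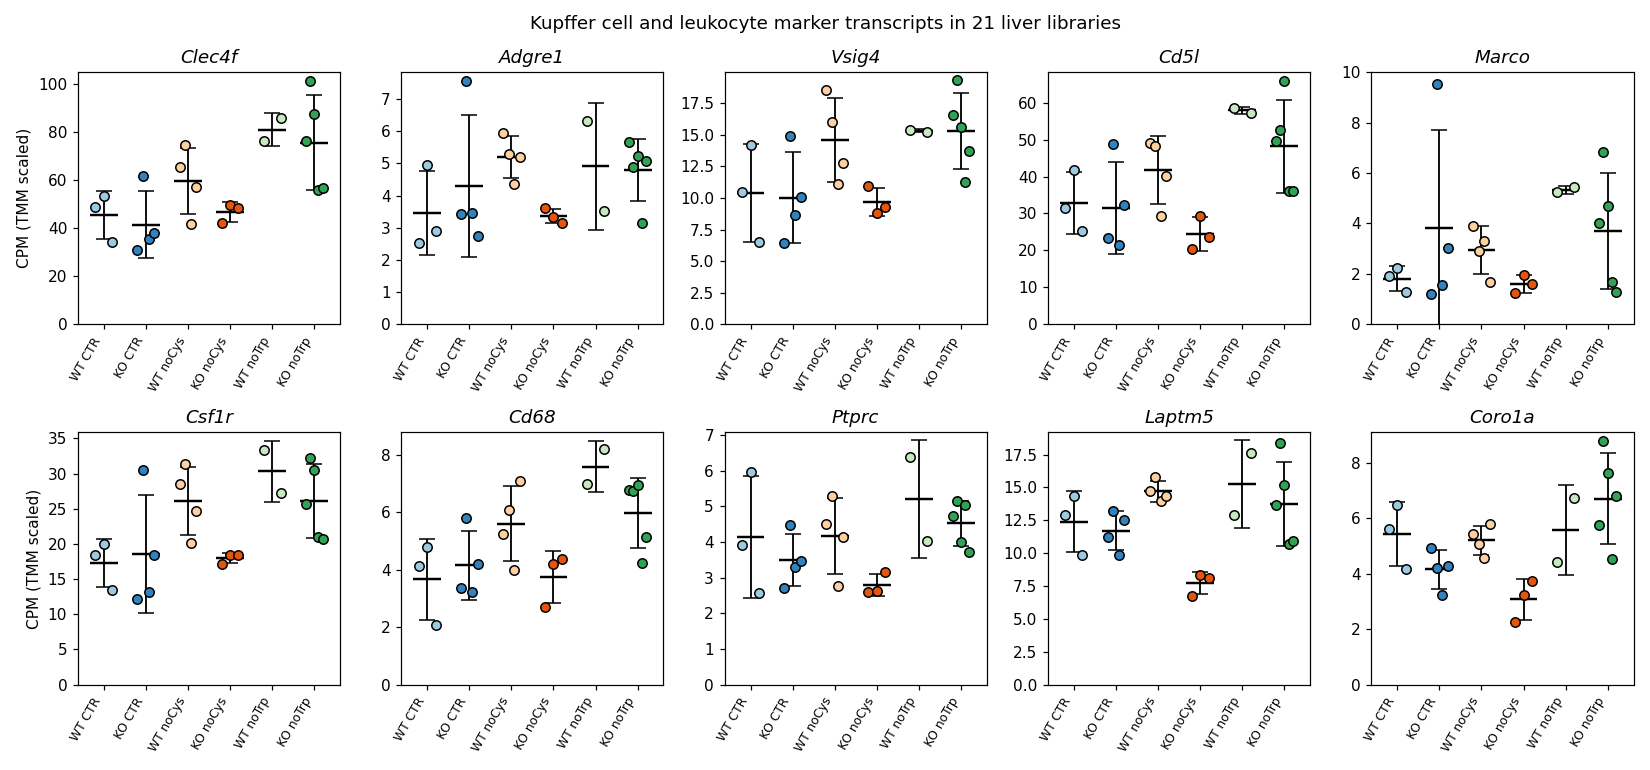
Each panel plots 1 marker, with the 6 genotype-by-diet groups on the x axis and TMM-scaled CPM on a linear y axis that starts at 0. Points are the 21 libraries, the horizontal line is the group mean and the bars are 1 SD (the lower bar for Marco in KO CTR is cut at 0). The KO noCys points of Laptm5 (6.77 to 8.34 CPM) lie below every other library of the series, and KO CTR replicate 2 is the top point of its group for 9 of the 10 markers.

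The first comparison asks what the knockout does when no cysteine is eaten, the setting in which a KO mouse neither eats cysteine nor makes it from cystathionine. All 10 markers had negative log2 fold changes in KO against WT on the noCys diet, and 3 of them were called lower: Laptm5, Coro1a and Cd5l. Over all tested genes 28.2% were called in this comparison and 13.4% were called lower. The median log2 fold change was -0.62 over the 10 markers and -0.015 over all genes tested. Scaling by library totals alone in place of TMM moved the all-gene median to 0.20 and the median of the markers to -0.41.

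Laptm5 (ENSMUSG00000028581, GRCm38 chromosome 4, 130913125 to 130936141, plus strand) counted 14.7, 15.8, 13.96 and 14.3 CPM in WT noCys replicates 1 to 4 and 6.77, 8.34 and 8.10 CPM in KO noCys replicates 1, 3 and 4. The groups did not overlap, and the KO values were also below both CTR groups, which spanned 9.84 to 14.4 CPM. Its log2 fold change was -0.91 (SE 0.18, 95% interval -1.29 to -0.53, adjusted p = 9.49e-04, edgeR), a level 0.531 times that of WT. The gene encodes a protein of the late endosome and lysosome membrane in blood cells. It was called in each of the 7 fits that left out 1 library of the 2 groups, with log2 fold changes of -0.97 to -0.84.

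Coro1a (ENSMUSG00000030707, chromosome 7, 126699773 to 126707787, minus strand) counted 5.43, 5.07, 4.56 and 5.79 CPM in the 4 WT noCys libraries and 2.26, 3.24 and 3.73 CPM in the 3 KO noCys libraries. The groups did not overlap. The log2 fold change was -0.74 (SE 0.24, 95% interval -1.23 to -0.25, adjusted p = 0.024, edgeR). The exons of Coro1a share 26 bases with Bola2 on the opposite strand, and whether the counting used strand is not given in the sources used here.

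Cd5l (ENSMUSG00000015854, chromosome 3, 87357881 to 87371073, plus strand) counted 49.2, 48.3, 29.4 and 40.0 CPM in WT noCys and 20.4, 29.4 and 23.6 CPM in KO noCys. The lowest WT library and the highest KO library both rounded to 29.4 CPM, so that the groups touched without crossing. Its log2 fold change was -0.76 (SE 0.27, 95% interval -1.31 to -0.21, adjusted p = 0.0373, edgeR). Leaving out single libraries ended the call for Cd5l in 5 of 7 fits and for Coro1a in 3 of 7. Only Laptm5 was called without WT noCys replicate 4 and without KO noCys replicate 1, and scaling by library totals alone also left Laptm5 as the only called marker. A block for replicate number also ended the calls of Cd5l (log2 fold change -0.65, adjusted p = 0.0641, edgeR) and Coro1a (-0.68, adjusted p = 0.053).

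The other 7 markers did not pass the test. Clec4f (ENSMUSG00000014542, chromosome 6, 83644542 to 83656187, minus strand) counted 65.2, 74.5, 41.9 and 56.9 CPM in WT noCys and 42.1, 49.8 and 48.3 CPM in KO noCys, and the groups overlapped. Its log2 fold change was -0.35 (95% interval -0.84 to 0.15, adjusted p = 0.287, edgeR), the smallest of the 10. Vsig4 spanned 11.1 to 18.6 CPM in WT noCys and 8.82 to 10.9 CPM in KO noCys (log2 fold change -0.60, adjusted p = 0.0894, edgeR). Adgre1 spanned 4.37 to 5.95 and 3.15 to 3.61 CPM, and Csf1r 20.1 to 31.3 and 17.1 to 18.4 CPM, in the same order. These 3 markers did not overlap between the groups although they missed the threshold. In all, 6 of the 10 markers were lower in KO noCys without overlap, against 18.1% of all tested genes. Ptprc spanned 2.75 to 5.29 CPM in WT noCys and 2.59 to 3.15 CPM in KO noCys, Cd68 3.99 to 7.11 and 2.71 to 4.37 CPM, and Marco 1.66 to 3.91 and 1.24 to 1.95 CPM. These 3 overlapped, with log2 fold changes of -0.57, -0.56 and -0.83. Part of the Csf1r transcript (873 exon bases) lies opposite exons of Hmgxb3.

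Whether cysteine removal acted differently in the genotypes was tested by the difference of the 2 diet effects. All 10 estimates were negative, that is, lower in KO relative to WT, with a median of -0.68, and none was called by edgeR, where 7.44% of all tested genes were. At an unadjusted p under 0.05 there were 3 (Adgre1, Marco and Laptm5). The closest was Laptm5, with a difference of -0.83 on the log2 scale (SE 0.25, 95% interval -1.35 to -0.30, adjusted p = 0.0517, edgeR). DESeq2 and limma-voom each called this 1 marker. The difference for Clec4f was -0.22 with an interval from -0.92 to 0.48.

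Within each genotype the noCys diet was then set against the complete diet. In WT, 8 of the 10 markers had positive log2 fold changes and none was called by edgeR or DESeq2, where edgeR called 0.661% of all tested genes. At an unadjusted p under 0.05 there were 2, Csf1r (log2 fold change 0.59, adjusted p = 0.299, edgeR) and Cd68 (0.60, adjusted p = 0.351). Csf1r counted 18.4, 20.0 and 13.5 CPM in WT CTR and 28.5, 31.3, 20.1 and 24.7 CPM in WT noCys, so that the highest CTR library lay just under the lowest noCys library.

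In KO, 9 of the 10 estimates were negative and Laptm5 alone was called lower, where 20.2% of all tested genes were called and 9.59% were called lower. Laptm5 counted 11.2, 13.2, 9.84 and 12.5 CPM in KO CTR, each above the 3 KO noCys libraries. The log2 fold change was -0.59 (SE 0.18, 95% interval -0.97 to -0.21, adjusted p = 0.026, edgeR). The call was lost in 5 of the 7 fits without 1 library, those without KO CTR replicates 2 or 4 or any of the 3 KO noCys libraries, and the estimate in the 7 fits was between -0.66 and -0.51. It was also lost under library totals alone (-0.46, adjusted p = 0.113). Clec4f counted 30.8, 61.6, 35.4 and 37.8 CPM in KO CTR and its estimate of 0.17 (95% interval -0.32 to 0.66) was the only positive one.

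The comparison of the 2 incomplete diets within the knockout sets the loss of cysteine against the loss of tryptophan. It holds the changes on both diets, and against KO CTR the marker median was -0.35 in KO noCys and 0.49 in KO noTrp. It shares the KO noCys libraries with the comparisons above and is not independent of them. Again all 10 estimates were negative, with a median of -0.69, and Coro1a, Laptm5 and Cd5l were called lower, where 13.9% of all tested genes were called and 6.75% were called lower. Coro1a counted 5.75, 8.78, 7.64, 4.55 and 6.79 CPM in KO noTrp replicates 1 to 5, all above the KO noCys libraries. The log2 fold change was -1.10 (SE 0.23, 95% interval -1.57 to -0.63, adjusted p = 0.00337, edgeR).

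Laptm5 counted 13.7, 18.4, 15.2, 10.7 and 10.9 CPM in KO noTrp, again without overlap with KO noCys (log2 fold change -0.82, SE 0.18, adjusted p = 0.00426, edgeR). Cd5l counted 49.6, 52.7, 66.0, 36.2 and 36.2 CPM in KO noTrp and was 0.511 times that level in KO noCys (log2 fold change -0.97, SE 0.26, adjusted p = 0.0158, edgeR). Coro1a and Laptm5 were called in all 8 fits that left out 1 library, and Cd5l in 6. Clec4f counted 76.3, 101, 87.5, 55.8 and 56.7 CPM in KO noTrp and did not overlap with KO noCys (log2 fold change -0.69, SE 0.23, adjusted p = 0.0508, edgeR), just past the threshold. The Clec4f call was made by DESeq2 (adjusted p = 0.0206), and also by edgeR with RLE size factors (adjusted p = 0.0485). Between the groups, 7 of the markers did not overlap, namely the 4 just given with Vsig4, Csf1r and Ptprc, against 9.55% of all tested genes.

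No marker was called between KO and WT without tryptophan. The 10 log2 fold changes lay between -0.52 for Marco and 0.27 for Coro1a, edgeR and DESeq2 both called none and none had an unadjusted p under 0.05, where edgeR called 0.195% of all tested genes. With 2 WT noTrp libraries the intervals were wide, for example -0.63 to 0.43 for Clec4f and -1.75 to 0.71 for Marco. The difference between the KO effect on the noCys diet and that on the noTrp diet was -1.01 for Coro1a (SE 0.34, adjusted p = 0.084, edgeR) and -0.77 for Laptm5 (SE 0.26, adjusted p = 0.0896). No marker was called by edgeR in that test, where 6.35% of all tested genes were, 2 had an unadjusted p under 0.05, and DESeq2 called Coro1a alone (adjusted p = 0.0485).

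On the complete diet, too, no marker was called between KO and WT by edgeR, which called 0.32% of all tested genes. None had an unadjusted p under 0.05 and DESeq2 called none. The estimates ran from -0.39 for Coro1a to 1.13 for Marco. The Marco value rests on KO CTR replicate 2: Marco counted 1.91, 2.24 and 1.28 CPM in WT CTR and 1.21, 9.53, 1.57 and 3.02 CPM in KO CTR, and without that library its estimate was 0.05.

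Tryptophan removal was set against the complete diet in the same way. In WT all 10 log2 fold changes against CTR were positive, with a median of 0.67, but none was called by edgeR, where 3.19% of all tested genes were, and 5 had an unadjusted p under 0.05. Cd68, a glycoprotein of macrophage endosomes and lysosomes, counted 4.13, 4.79 and 2.09 CPM in WT CTR and 6.97 and 8.22 CPM in WT noTrp. The groups did not overlap, and the log2 fold change was 1.02 (SE 0.32, 95% interval 0.36 to 1.69, adjusted p = 0.0848, edgeR), with DESeq2 giving an adjusted p of 0.0358. Clec4f counted 48.6, 53.3 and 34.3 CPM in WT CTR and 76.1 and 85.8 CPM in WT noTrp, also without overlap (log2 fold change 0.83, SE 0.28, adjusted p = 0.108, edgeR). In all, 6 markers lay above WT CTR without overlap, against 15.3% of all tested genes.

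In KO, a comparison that shares the KO CTR libraries with that of the noCys diet, 9 of the 10 estimates were positive with a median of 0.49, and Clec4f alone was called higher, where 1.87% of all tested genes were called and 0.779% were called higher. Its KO noTrp libraries averaged 75.5 ± 19.7 CPM (SD, n = 5) and its KO CTR libraries 41.4 ± 13.8 CPM (SD, n = 4). KO CTR replicate 2, at 61.6 CPM, was above the 2 lowest KO noTrp libraries, so that the groups overlapped. The log2 fold change was 0.86 (SE 0.21, 95% interval 0.42 to 1.30, adjusted p = 0.0378, edgeR), or 1.82 times the KO CTR level. Coro1a followed (log2 fold change 0.69, SE 0.20, adjusted p = 0.0779, edgeR) and was called by DESeq2 (adjusted p = 0.0292).

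The calls in this comparison moved with single libraries. Clec4f was called in 3 of the 9 fits without 1 library, and was lost without KO CTR replicates 1, 3 or 4 or KO noTrp replicates 1, 2 or 3. Without KO CTR replicate 2, 4 markers were called higher, namely Clec4f, Vsig4, Cd5l and Csf1r, and without KO noTrp replicate 4 Coro1a was called beside Clec4f. The Marco estimate was -0.12 and had an interval from -1.13 to 0.89.

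**Figure D2:**
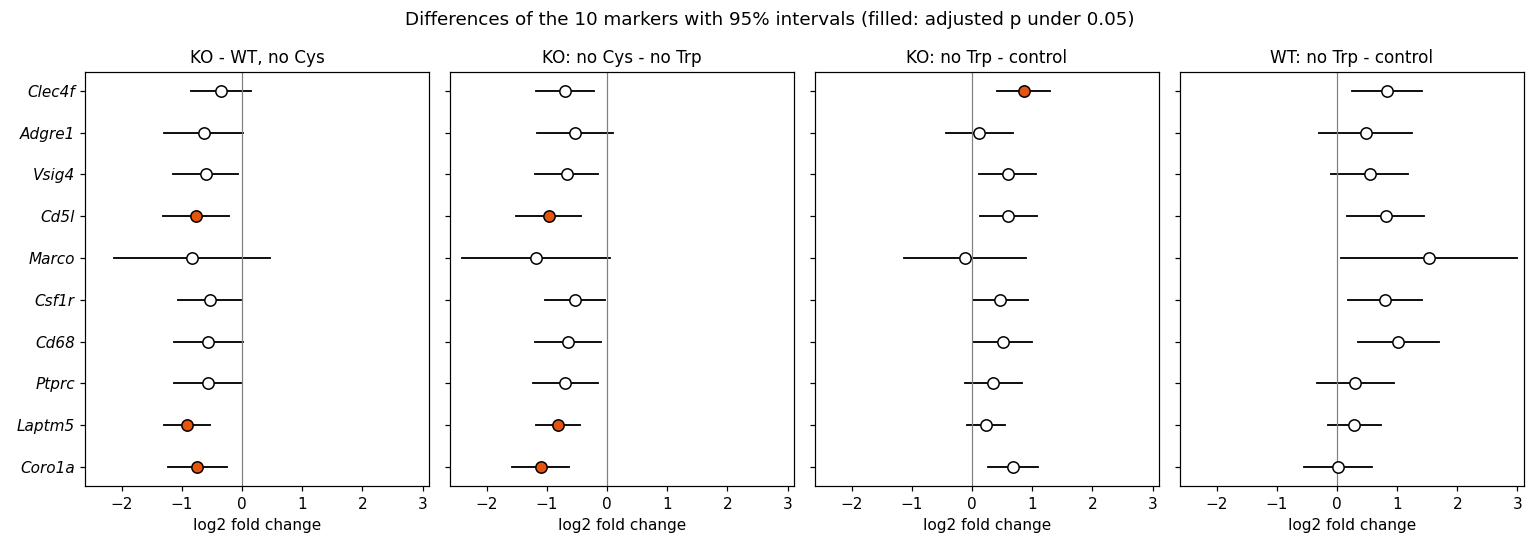
Each panel is 1 comparison, with the log2 fold change on the x axis and the 10 markers on the y axis. Circles are edgeR estimates, bars are their 95% intervals and filled circles have an adjusted p under 0.05. The 2 panels on the left, which share the KO noCys libraries, hold only negative estimates (3 filled in each), and the 2 on the right hold positive ones except for Marco in KO (-0.12).

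The markers varied together from library to library. Over the 21 libraries, the 45 pairs of markers had Pearson r of log2 CPM between 0.34 and 0.92, with a median of 0.71. After the group means were taken out, r was between 0.13 and 0.92 with a median of 0.67, so that the shared variation was also present within the groups. The points share libraries, depth and scaling, and the values are given as a description. The highest of these r over the libraries was that of Clec4f with Csf1r, and the lowest that of Adgre1 with Coro1a. Laptm5 and Coro1a, found in many kinds of leukocytes, had an r of 0.83 with each other.

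**Figure D3:**
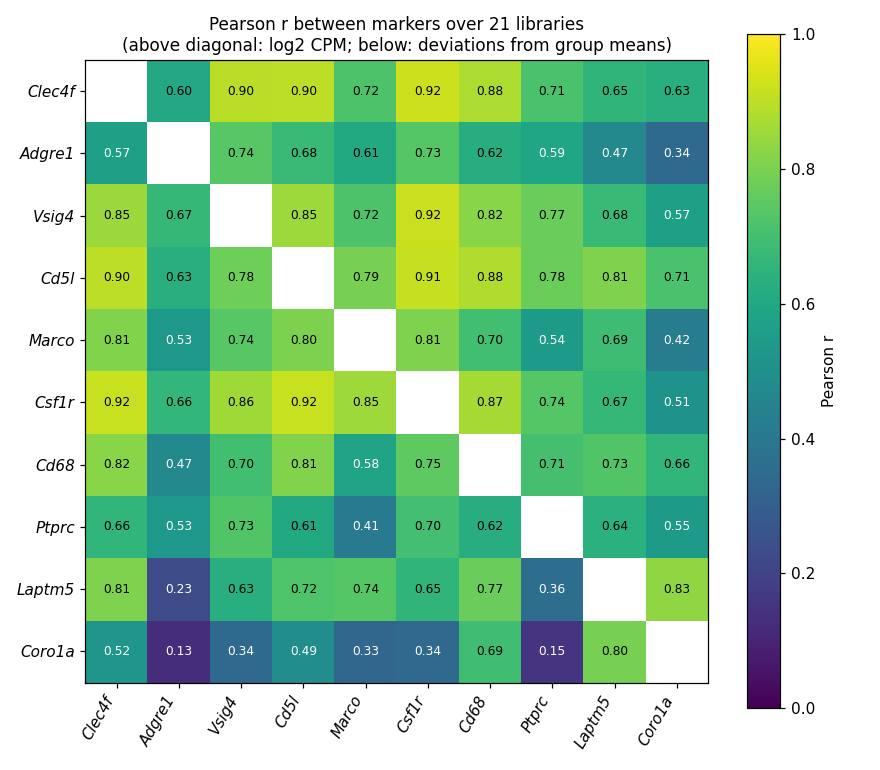
The matrix gives Pearson r between each pair of markers over 21 libraries, with the markers in the same order on both axes, colour from 0 to 1 and the r printed in each cell. Cells above the diagonal use log2 CPM and cells below it use deviations from the group means. Values range from 0.34 to 0.92 above and from 0.13 to 0.92 below the diagonal.

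Among 9129 genes with a named symbol and a mean above 2 log2 CPM, the 5 most like Clec4f over the 21 libraries were C1qc (r = 0.93), C1qa and C1qb (both 0.927), Ctss (0.923) and Exoc3l2 (0.892). The first 3 encode the chains of complement C1q, which macrophages make, and Ctss encodes the lysosomal protease cathepsin S. Within groups the r of these 5 was 0.82 to 0.93. The 5 most like Ptprc were Lyz2, the macrophage lysozyme (r = 0.832), Etfa (0.83), F13b (0.823), Wfdc17 (0.822) and Itm2b (0.821). Etfa encodes a subunit of a mitochondrial electron carrier and F13b a subunit of plasma factor XIII that the liver secretes.

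Since the markers varied together, the 250 bases upstream of their annotated starts were read for the letters GAGGAA, the core of the box bound by PU.1, a transcription factor of macrophages and other blood cells. The windows used came from 10 RefSeq (GRCm38.p6) start sites of 8 markers. Csf1r was left out before the count, and no window of Adgre1 was used. The letters occurred on either strand in 6 of the 10 windows, belonging to 6 markers, and in 23.3% of all 32851 windows of this length. Cd5l, Marco, Cd68, Ptprc and Laptm5 had 1 match each and Vsig4 had 2, while the windows of Clec4f and Coro1a had none. The matches of Ptprc and Laptm5 lay inside the GENCODE gene, and the windows of Ptprc and Coro1a lay wholly inside it. A match is a description of letters and not evidence of binding. The windows of 4 markers with a match and that of Clec4f are shown because these are macrophage genes that varied together with and without the letters. They are read 5′ to 3′ on the strand of the gene and end before the RefSeq start (for Clec4f, only the bases outside the GENCODE gene are shown), with matches in capitals (TTCCTC where the match is on the opposite strand).
Cd5l, chr3:87357631-87357880, plus strand: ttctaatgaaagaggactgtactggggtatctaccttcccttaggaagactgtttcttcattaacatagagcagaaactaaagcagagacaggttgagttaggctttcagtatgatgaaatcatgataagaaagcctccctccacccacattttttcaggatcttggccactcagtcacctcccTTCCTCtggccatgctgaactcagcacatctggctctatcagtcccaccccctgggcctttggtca
Vsig4, chrX:96293439-96293688, minus strand: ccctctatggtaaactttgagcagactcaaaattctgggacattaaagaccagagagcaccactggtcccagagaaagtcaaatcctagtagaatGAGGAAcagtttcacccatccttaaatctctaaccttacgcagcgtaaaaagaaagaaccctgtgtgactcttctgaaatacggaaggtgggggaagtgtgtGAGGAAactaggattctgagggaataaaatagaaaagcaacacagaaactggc
Marco, chr1:120505025-120505274, minus strand: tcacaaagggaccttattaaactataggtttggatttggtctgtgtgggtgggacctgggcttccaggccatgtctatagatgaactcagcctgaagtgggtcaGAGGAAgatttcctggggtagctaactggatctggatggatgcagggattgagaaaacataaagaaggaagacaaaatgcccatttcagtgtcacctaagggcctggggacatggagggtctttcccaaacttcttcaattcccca
Cd68, chr11:69666171-69666420, minus strand: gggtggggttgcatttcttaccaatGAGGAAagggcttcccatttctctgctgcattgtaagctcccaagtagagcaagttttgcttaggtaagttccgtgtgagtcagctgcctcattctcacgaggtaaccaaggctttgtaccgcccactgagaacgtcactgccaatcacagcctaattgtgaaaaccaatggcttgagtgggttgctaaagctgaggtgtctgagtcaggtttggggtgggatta
Clec4f, chr6:83656188-83656366, minus strand: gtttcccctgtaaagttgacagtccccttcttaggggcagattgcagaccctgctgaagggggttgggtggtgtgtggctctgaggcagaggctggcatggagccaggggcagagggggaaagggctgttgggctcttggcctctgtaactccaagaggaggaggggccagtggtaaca
The match in Cd5l begins 66 bases upstream of the start, those in Vsig4 at 155 and 53 bases, that in Marco at 146 bases and that in Cd68 at 225 bases.

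Further genes of the same cells were read from lists. Of 22 other Kupffer cell genes tested, 8 were called lower in KO noCys against WT noCys and none higher, with a median log2 fold change of -0.61. In this comparison 13.4% of all tested genes were called lower. Among the largest falls were those in C6, a terminal complement component (log2 fold change -1.82, adjusted p = 4.54e-05, edgeR), Ctsc, a lysosomal protease (-1.31, adjusted p = 4.29e-04), and Cfp, which encodes properdin (-1.13, adjusted p = 0.0018). C6 stood at 71.2 CPM in KO and 252 CPM in WT, and hepatocytes also make C6. The number called was 5 without KO noCys replicate 3 and 5 under library totals.

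Of 22 general macrophage genes tested (24 listed), 5 were called lower, led by Aif1, the actin-bundling protein IBA1 (log2 fold change -1.07, adjusted p = 0.0199, edgeR), and the scavenger receptor Msr1 (-0.99, adjusted p = 0.00593). Of 32 general leukocyte genes, 5 were called lower, a share close to the 13.4% of all tested genes, led by Ncf1, a subunit of the phagocyte NADPH oxidase (-1.09, adjusted p = 0.0101). Without KO noCys replicate 3 these counts were 3 and 2, and they were also 3 and 2 under library totals. Of 6 tested B cell and plasma cell genes, 4 were called lower, Jchain and Igkc among them (-2.12 and -1.83, adjusted p = 0.00463 and 0.0113), and 2 without WT noCys replicate 1, which alone brought their summed level in WT noCys to 38.4 CPM against a group median of 10.3 CPM. Among the others, 1 of 11 T and NK cell genes (Cd4, -1.33, adjusted p = 0.0442), a share below that of all genes, 2 of 10 genes of recruited monocytes (Cd9 and Itgam) and none of 10 dendritic cell and MHC class II genes or of 2 neutrophil genes were called. The T and NK cell count was 0 without WT noCys replicate 1, 3 or 4 or KO noCys replicate 1 or 3, and 2 without WT noCys replicate 2. The monocyte count was 1 without WT noCys replicate 1, 2 or 3 or KO noCys replicate 3 or 4, and the B cell and plasma cell count was also 2 without KO noCys replicate 3. No gene of these lists was called higher.

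Genes of other liver cells moved in the same comparison. Of 18 endothelial genes, 9 were called lower, among them Bmp2 (log2 fold change -0.93, adjusted p = 9.64e-04, edgeR) and Kdr, the main VEGF receptor (-0.69, adjusted p = 0.0138). The count was 4 without KO noCys replicate 4 and 1 under library totals. The summed endothelial level was 341 to 368 CPM in KO noCys and 392 to 568 CPM in WT noCys. The summed level of the 10 markers was 110 to 130 CPM in KO noCys and 136 to 210 CPM in WT noCys. Of 15 stellate cell genes 3 were called lower, and of 12 hepatocyte genes 3 (Cyp3a11, Alb and Ttr), with no gene called higher in either list. The share called lower over all tested genes was 13.4%. The summed hepatocyte level was 48040 to 78250 CPM in KO noCys and 102800 to 115300 CPM in WT noCys. The stellate count was 0 without WT noCys replicate 1 or KO noCys replicate 3, 1 without WT noCys replicate 2 or KO noCys replicate 1, and 1 under library totals, and the hepatocyte count was 3 in each of these fits. The part of these cell types in the fall of Laptm5, Coro1a and Cd5l was not tested.

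In KO noCys against KO noTrp, 10 of the 22 other Kupffer cell genes, 8 of the 22 macrophage genes, 9 of the 32 leukocyte genes and 6 of the 10 dendritic cell and MHC class II genes were called lower, and no gene of these lists was called higher, against 6.75% of all tested genes called lower. The MHC class II genes had the largest median log2 fold change of the 4 lists (-1.14). Cd74, the invariant chain, stood at 36.2 CPM in KO noCys and 83.3 CPM in KO noTrp (log2 fold change -1.20, adjusted p = 0.0092, edgeR), and H2-Ab1 at 14.1 and 31.6 CPM (-1.15, adjusted p = 0.0162). In KO CTR, Cd74 stood at 45.2 CPM and H2-Ab1 at 16.15 CPM. Against KO CTR, the median of the dendritic cell and MHC class II list was -0.33 in KO noCys and 0.685 in KO noTrp. No gene of that list was called in either comparison. C1qa was lower in KO noCys than in KO noTrp by 0.93 on the log2 scale (adjusted p = 0.0125, edgeR). Of 9 genes of the CSF1 signalling axis and its transcription factors, Spi1, which encodes PU.1 (-0.84, adjusted p = 0.0391), and Irf8 (-0.68, adjusted p = 0.0192) were called lower. Without KO noCys replicate 3 the 5 counts were 4, 3, 0, 3 and 0 in the order given. Of the 18 endothelial genes, 8 were called lower here (3 without that library). None of 15 stellate cell genes was.

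The same lists were read for tryptophan removal. In KO against KO CTR, 2 of 22 other Kupffer cell genes were called higher, against 0.779% of all tested genes. They were Id3, a regulator that Kupffer cells require (log2 fold change 1.31, adjusted p = 0.0212, edgeR), and the platelet and Kupffer cell lectin Clec1b (0.88, adjusted p = 0.0287). Id3 was also called higher in KO noCys than in KO CTR (1.11, adjusted p = 0.0174), with mean levels of 15.2 CPM in KO CTR, 32.7 CPM in KO noCys and 37.6 CPM in KO noTrp. In KO noTrp against KO CTR, 1 macrophage gene, the efferocytosis receptor Mertk (0.56, adjusted p = 0.0347), and 1 endothelial gene, the scavenger receptor Stab1 (0.53, adjusted p = 0.0407), were also called higher. The list medians were 0.44 for Kupffer cell, 0.35 for macrophage, 0.37 for leukocyte and 0.40 for endothelial genes. Without KO CTR replicate 2 the counts called higher were 7 Kupffer cell, 4 macrophage and 8 endothelial genes, and all 3 counts were 0 without KO CTR replicate 1 or replicate 3. In WT, where 3.19% of all tested genes were called in either direction, the same diet gave 1 called Kupffer cell gene, Vcam1 (1.56, adjusted p = 0.0223), 1 macrophage gene, Fcgr4 (1.39, adjusted p = 0.0323), and 3 endothelial genes, with medians of 0.50, 0.44 and 0.39. Of the leukocyte genes Ncf1 was called higher (1.33, adjusted p = 0.0435) and Lcp1, an actin-bundling protein, lower (-0.42, adjusted p = 0.038), and both calls were lost whichever library was left out. Of the monocyte genes the immediate early gene Nr4a1 was called higher (4.99, adjusted p = 0.00405), and it was not called without WT noTrp replicate 1. Leaving out 1 library gave 0 to 1 Kupffer cell, 0 to 3 macrophage and 2 to 4 endothelial genes, with no Kupffer cell gene without any of the 3 WT CTR libraries and 3 macrophage genes without WT noTrp replicate 2. Estimates for all 15 stellate cell genes were negative without tryptophan in both genotypes, with medians of -0.48 in KO and -0.64 in WT. Of them Rgs5, a pericyte gene, was called lower in KO (-0.84, adjusted p = 0.0138) and Reln in WT (-0.84, adjusted p = 0.0228), and leaving out 1 library gave 0 to 4 called lower in KO (4 without KO CTR replicate 2, 0 without KO CTR replicate 3 or 4) and 0 to 2 in WT (2 without WT noTrp replicate 2, 0 without WT CTR replicate 1 or 3 or WT noTrp replicate 1). All 7 erythroid and platelet genes had negative estimates in KO (median -0.76, none called), and 6 of 7 had positive ones in WT (median 0.47, with Alas2 called lower, a call that was lost whichever library was left out).

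**Figure D4:**
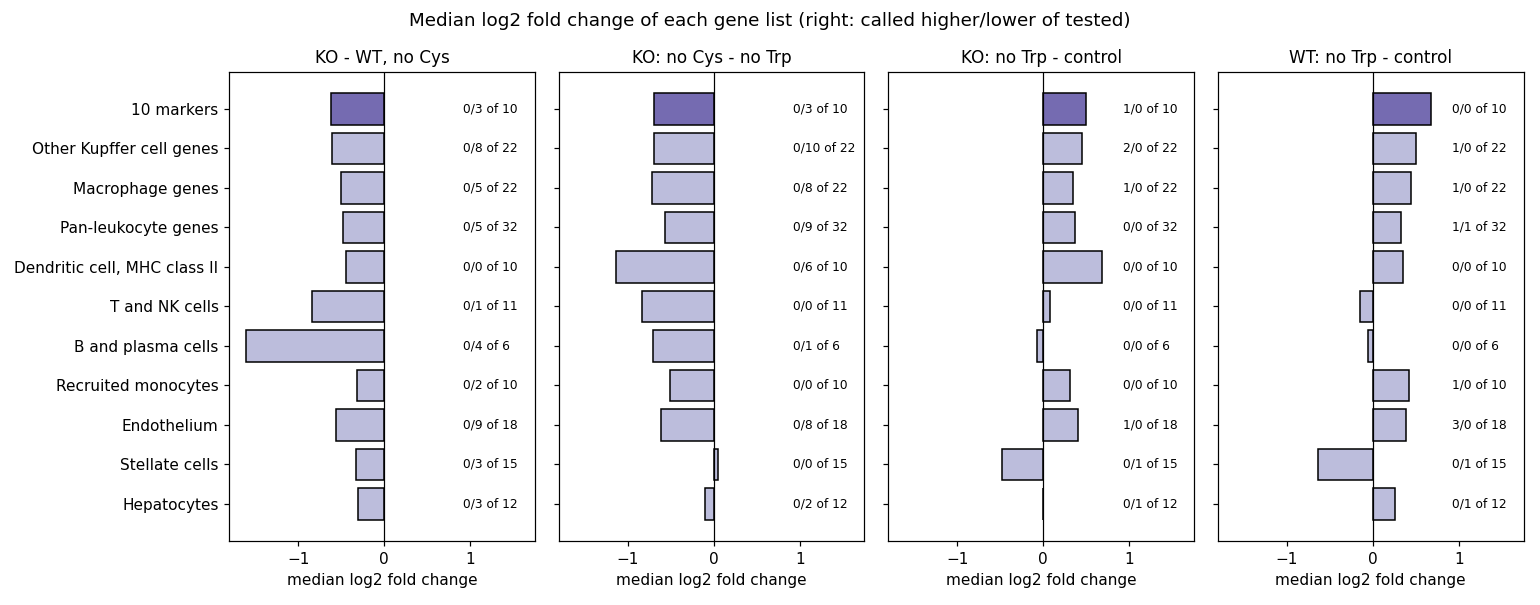
Each panel is 1 comparison, with a bar for the median log2 fold change of each gene list and, at the right, the genes called higher and lower of those tested. The dark bar is the 10 markers. In the 2 panels without cysteine the immune and endothelial lists have negative medians (-0.62 and -0.69 for the markers), and in the 2 panels without tryptophan the marker medians are 0.49 and 0.67.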

How the data were processed

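Total RNA from mouse liver was poly(A)-selected and sequenced, and the authors aligned reads to GRCm38 with HISAT2 2.1.0 and counted them per gene with HTSeq 0.11.0, per the labels. The deposited table holds raw counts. Its strand setting is not given in the sources used here, and 1 column matched no labelled sample and was not used. Genes passing edgeR's filterByExpr (minimum count 10, total 15; 14370 genes) were fitted with the quasi-likelihood test of edgeR 4.0.16 in R 4.3.3, with TMM scaling and 1 mean per group. Alternatives used DESeq2 1.42.0, limma-voom 3.58.1, RLE factors, library totals, no filter, fits of the compared groups alone, a block for replicate number, and fits that each dropped 1 library.

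The scripts were tested on simulated counts. Log2 CPM used a prior count of 2. Symbols and positions came from GENCODE M21, and promoter windows from RefSeq (GRCm38.p6). In each of the 16 further gene lists, the genes named are the called ones with the largest changes, at most 4 per comparison, or the 2 most abundant where none was called. One gene that this rule names is not reported here. The members, the lists and the tests were chosen with earlier results of these data known. No 2 libraries of a group agreed within sampling noise (chi-square per degree of freedom 10.3 to 114 over 29 pairs). Nothing in the labels says more of the replicates than that they are biological, and p-values measure the spread between these libraries.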

Additional observations from a re-analysis of the deposited data

Results flagged for a closer look

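In the 30 combinations of a marker with a group of 4 or 5 libraries, the highest or lowest library was compared with its nearest neighbour by Dixon's ratio. It passed the 95% critical value in 1 of the 30, and chance alone passes it in about 1 of 20. The library was KO CTR replicate 2 for Adgre1, which stood at 7.57 CPM with its nearest neighbour at 3.46 CPM (ratio 0.85). The same library, the deepest of the series, was the highest of its group for 9 of the 10 markers, and without it 4 markers instead of 1 were called higher in KO noTrp against KO CTR.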

How the results depend on the processing

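No called marker changed sign under any setting. Of the single-marker values, 820 of 850 kept their side of the threshold when 1 library was left out, 21 lost the call and 9 gained it, and under the other settings 6 lost it and 24 gained it. For KO against WT without cysteine (3 markers called), limma-voom called 5, library totals alone 1 and a fit of only the groups compared 6, and leaving out 1 library gave 1 to 3. For KO noCys against KO CTR (1 called), library totals gave 0 and leaving out 1 library 0 to 1. For KO noTrp against KO CTR (1 called), DESeq2 and limma-voom each called 2 and only the groups compared 0, with 0 to 4 when 1 library was left out. For KO noCys against KO noTrp (3 called), DESeq2 and only the groups compared each called 6, with 2 to 4 when 1 library was left out. For the difference of the cysteine effects between genotypes (0 called), DESeq2, limma-voom and only the groups compared each called 1, with 0 to 1 when 1 library was left out. For the difference of the KO effect between the noCys and noTrp diets (0 called), DESeq2 called 1, with 0 to 1 when 1 library was left out. For WT noTrp against WT CTR (0 called), DESeq2 called 1. For any difference among the groups (5 called), leaving out 1 library gave 3 to 7. The cause of these changes was not tested. The count stayed at 0 with each library left out for KO against WT on the complete diet and without tryptophan, and for both diets against CTR in WT.

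Whether the replicate numbers of the labels pair the samples could not be settled. Of 41 same-numbered pairs from different groups, 9 had a correlation of deviations over 0.1 (range -0.36 to 0.35). Of 20 libraries with a same-numbered partner, 7 correlated best with their own number. The paper states that experimental and control mice were littermates where possible, and these correlations cannot exclude pairing by litter. With the replicate block, 1 marker was called in KO against WT without cysteine, 1 in each of the 2 differences of differences and 3 for any difference among the groups. Depth limits Marco most, with a lowest count of 11, and then Cd68 with 18. The 2 WT noTrp libraries limit every comparison that uses them.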

Other observations

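Without cysteine, further lists that were not part of the immune or endothelial description were read for KO against WT, beside the 13.4% of all tested genes that were called lower. Of 11 cytokine and chemokine genes tested, 3 were called lower and none higher, namely Il18 (log2 fold change -1.27, adjusted p = 0.00164, edgeR), Ccl6 (-1.03, adjusted p = 0.0146) and Tgfb1 (-0.77, adjusted p = 0.0357). Of 9 genes of the CSF1 axis, Cebpb alone was called (-0.78, adjusted p = 0.0224), a share no larger than that of all genes. Of 7 erythroid and platelet genes, 3 were called lower, namely Hba-a2 (-1.54, adjusted p = 0.00508), Hbb-bt (-1.53, adjusted p = 0.0125) and Alas2 (-0.84, adjusted p = 0.00111). Their summed level was 133 to 163 CPM in KO noCys and 190 to 381 CPM in WT noCys. Without KO noCys replicate 3 the cytokine count was 1 and the erythroid and platelet count 2. Of 5 bile duct genes 1 was called lower, and of 7 proliferation genes 1 (Cdk1, -1.93, adjusted p = 0.00498), the latter a share close to that of all genes. The counts of the CSF1 axis, bile duct and proliferation lists were each 0 without KO noCys replicate 3, that of the CSF1 axis also without KO noCys replicate 4 and that of the bile duct also without WT noCys replicates 3 or 4.

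Il18 had the smallest adjusted p of these lists for a difference between the genotypes in the response to cysteine removal. Its difference of differences was -1.72 on the log2 scale (adjusted p = 0.00836, edgeR), and its mean level was 4.08 CPM in KO noCys, 10.1 CPM in KO CTR, 9.39 CPM in WT noCys and 7.27 CPM in WT CTR.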
